A study of Mus musculus with 10 samples.

Results

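Wnt4, which codes for a secreted Wnt ligand, and Ctnnb1, which codes for β-catenin, moved in opposite directions in the gastrocnemius of obese mice given an anti-miR-22 antisense oligonucleotide (ASO). Wnt4 was higher in every ASO library than in any control (CTRL) library, while Ctnnb1 was lower in every ASO library. These are 2 of 10 genes of the Wnt pathway described here, out of 21098 genes in the count table. The 10 genes are the ligands Wnt4, Wnt5a and Wnt9a, the receptors Fzd4 and Fzd7, the co-receptors Lrp5 and Lrp6, the feedback inhibitor Axin2, Ctnnb1 and the nuclear factor Tcf7l2. They were taken by symbol from a list that was chosen by the difference in counts between ASO and CTRL, with that contrast in view, so their values in the 2 groups are a description, without a test.

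Wnt proteins are secreted lipid-modified ligands that bind Frizzled receptors together with the co-receptors Lrp5 or Lrp6. In the absence of a ligand, a complex built on Axin and Apc marks β-catenin for degradation, and when the receptors are occupied β-catenin accumulates and acts with Tcf and Lef factors in the nucleus. Axin2 is a target of this transcription and restrains the pathway in turn, which makes its RNA a common readout of β-catenin signaling. In skeletal muscle the pathway is known for its roles in embryonic myogenesis, in regeneration by satellite cells and at the neuromuscular junction.

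All mice were male wild-type C57BL/6J animals made obese with the high-fat diet D12492i, begun at 9 weeks of age and continued for 9 weeks before the injections. The ASO group (RES-010, 5 libraries) received 10 mg/kg subcutaneously each week for 14 weeks, and the CTRL group (5 libraries) received matched volumes of saline. The series gives an age of 30 weeks for the animals of both groups, which is less than the starting age, diet and treatment periods add up to. No lean group and no control oligonucleotide were among the samples used here. Counts came from the last 500 bp of annotated 3′ ends, called segments below, and levels are CPM, counts relative to the TMM-scaled library size. In whole muscle, fewer cells of a type and less RNA per cell cannot be told apart.

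The oligonucleotide is directed against miR-22. The mature sequence from RefSeq (GRCm38.p6) is shown with its seed, bases 2 to 8, in capitals, because targets of a microRNA often carry the complement of the seed in their 3′UTR.
mmu-miR-22-3p: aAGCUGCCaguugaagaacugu
The complement, GGCAGCT, was sought on the transcribed strand in the longest 3′UTR of each gene among its protein-coding transcripts in GENCODE M39. It occurred in 1 of the 10 genes, Tcf7l2, and in 1690 of the 7781 tested genes with such a 3′UTR (21.7%). The Tcf7l2 match lies in the 3′UTR on the plus strand at chr19:55919889-55919910 (GRCm39) and is shown with the match in capitals.
Tcf7l2: acatacaaggtgaaGGCAGCTg
Neither Wnt4 nor Lrp6, which were higher with the ASO, nor Axin2 nor Ctnnb1, which were lower, holds these letters in that 3′UTR. When transcripts annotated as targets of nonsense-mediated decay were read as well, Axin2 and Lrp5 also had 1 match each and the share over tested genes was 32.1%. RefSeq promoter windows from 250 bases before to 50 bases after the start were found for 7 of the 10 genes. The Tcf and Lef core CTTTGA was in none of their 9 windows on either strand, and in 5257 of all 32851 windows (16%).

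The library totals were 1606909 to 2116720 counts in CTRL and 2239186 to 2632560 in ASO, so every ASO library was deeper than every CTRL library. Of 7819 genes tested with edgeR, 2281 (29.2%) had an adjusted p under 0.05, 916 of them higher (11.7%) and 1365 lower (17.5%) in ASO. With scaling to total counts in place of TMM the split was 528 higher and 1821 lower, the median log2 fold change over all genes being -0.21 in place of -0.03, and with upper quartile scaling it was 1261 and 1207. The 2 groups did not overlap for 1671 genes (21.4%). Muscle fiber markers were abundant as a sum in every library, at 44151 to 83448 CPM in CTRL and 88869 to 137029 CPM in ASO. Most of the sum came from Acta1, Ckm and Atp2a1, while Tnnt3 and Mylpf had no count and Tnni2 and Myh4 had 4 and 42 over the 10 libraries. No row of the table belonged to miR-22 or its host gene, so the labels were not checked against the target. Along transcripts, the log2 ratio of distal to upstream counts (most distal segment over segments 1000 bp or more away, median of 1594 genes) was -0.44 to 0.49 in CTRL and 1.17 to 1.69 in ASO. The part of this shift along transcripts in the differences given here was not tested, and values per segment are given for those of the 10 genes with more than 1 counted segment.

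Wnt4 is a ligand with signaling through β-catenin and through other branches. In the CTRL libraries, replicates 1 to 5, it had 22, 29, 14, 11 and 25 counts, or 10.4, 13.5, 6.92, 6.49 and 14.0 CPM. The ASO libraries had 64, 72, 55, 42 and 87 counts, or 30.9, 30.6, 23.3, 17.5 and 41.0 CPM. The lowest ASO library therefore lay above the highest CTRL library. Mean levels were 10.3 ± 3.55 CPM (SD, n = 5) and 28.7 ± 8.87 CPM (SD, n = 5), a log2 fold change of 1.47 (SE 0.29). All counts came from a single segment of 500 bp in the 3′UTR, in the last exon of the gene on the plus strand, chr4:137026538-137027037 (GRCm39). Wnt4 was thus counted at its distal end only, whereas nearly all Ctnnb1 counts came from segments ending 727 to 8797 bp upstream. The part of the shift along transcripts in these 2 differences was not tested.

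Wnt5a, a ligand mainly known for signaling that does not use β-catenin, overlapped between the groups. CTRL libraries held 8.02, 9.33, 30.6, 14.2 and 10.7 CPM, and ASO libraries 15.9, 8.07, 12.7, 12.9 and 9.90 CPM. The single high value was that of CTRL replicate 3, and the log2 fold change of -0.29 (SE 0.36) became 0.18 without that library. The same library had the highest summed adipocyte markers (13261 CPM, against 843 to 2303 in the other CTRL libraries and 714 to 3619 in ASO) and the highest summed markers of fibro-adipogenic progenitors, the connective tissue cells of muscle, at 1621 CPM against 138 to 720.4 in all others. Macrophage markers also peaked there, at 1185 CPM against 56.1 to 455.5 elsewhere, and their part in the Wnt5a value was not tested. Most of the spread of the progenitor sum in CTRL came from Dpt, with an SD of 460.5 CPM, against 30.74 for Lum and 10.34 for Col1a1. Dcn and Ly6a of that list had no count. Wnt5a counts fell on 2 segments of its 3′UTR, of which the distal one had 35 counts in CTRL and 41 in ASO and the one 2014 bp upstream had 107 and 93. Wnt9a could not be measured, because its 2 segments cover the same 500 bases, chr11:59223879-59224378, and neither has a base of its own; it had 0 counts in all libraries.

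Of the 16 other Wnt ligands listed, Wnt11 alone was tested, and it fell. Wnt11, a ligand of the non-canonical branch, had 13.2, 16.3, 15.8, 18.9 and 17.4 CPM in CTRL and 9.17, 7.65, 3.81, 9.60 and 8.96 CPM in ASO. The groups did not overlap, and the log2 fold change was -1.05 (SE 0.26, edgeR adjusted p = 0.00925). The segment that held 93.9% of its counts ends 1624 bp upstream of the most distal segment. Wls, which carries Wnt proteins to the cell surface, fell from 125 ± 10.8 to 73.9 CPM on average, with a log2 fold change of -0.76 (SE 0.17, edgeR adjusted p = 0.00669), but it did not pass on its most distal segment alone (-0.55, edgeR adjusted p = 0.372). Tmed5, which aids the export of Wnt proteins from the endoplasmic reticulum, fell by 0.82 on the log2 scale (SE 0.21, edgeR adjusted p = 0.0123), and 72.3% of its counts came from a segment that ends 16695 bp before the most distal one. These were the 2 tested genes of the 4 listed for ligand secretion.

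**Figure D1:**
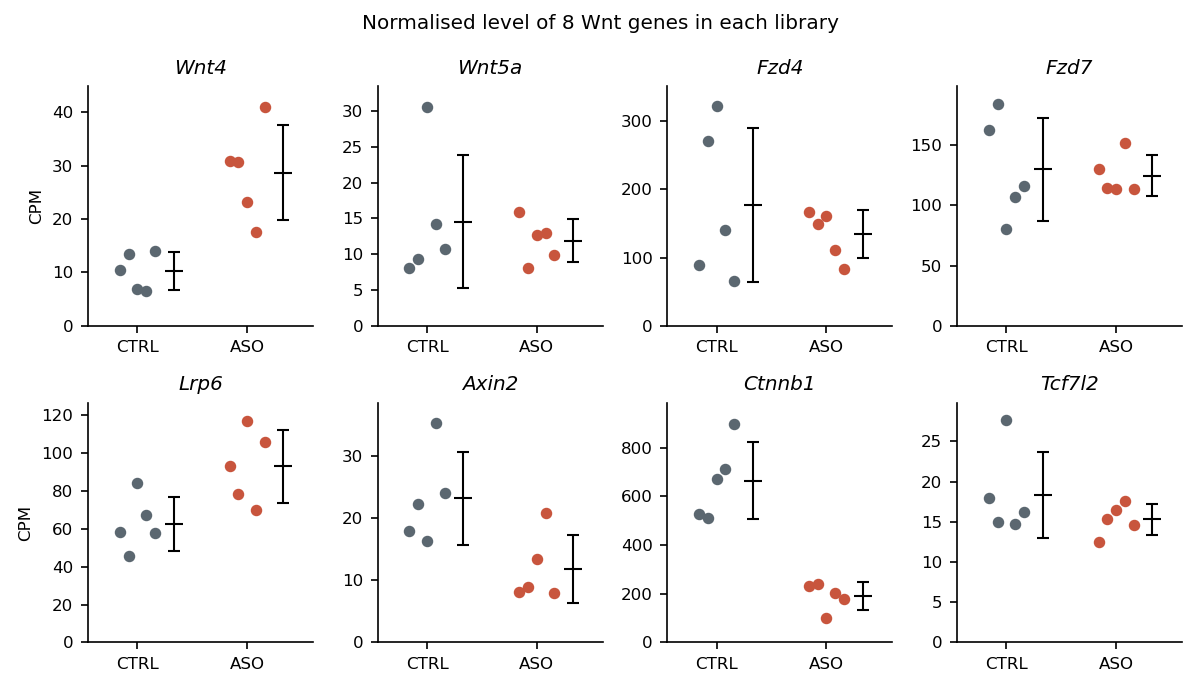
Level in CPM (vertical axes, linear from 0) of the 8 measured genes in each library of the CTRL and ASO groups, with the mean and SD beside the points (n = 5 per group). The ASO points lie above all CTRL points for Wnt4 and below all of them for Ctnnb1, and overlap with CTRL for the other 6 genes.

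The receptors Fzd4 and Fzd7 showed no separation of the groups. Fzd4, a Frizzled receptor prominent in blood vessels, had 89.6, 270, 322, 141 and 65.7 CPM in CTRL and 167, 150, 162, 112 and 83.9 CPM in ASO. The CTRL libraries covered the wider range and enclosed all ASO values, and the log2 fold change was -0.40 (SE 0.39). Summed endothelial markers were 148 to 239 CPM in CTRL and 131 to 299 CPM in ASO. Fzd7, a receptor found on satellite cells, had 162, 184, 80.0, 107 and 116 CPM in CTRL and 130, 115, 113, 152 and 113 CPM in ASO, and again the ASO values lay within the CTRL range. Its log2 fold change of -0.06 (SE 0.21) turned to 0.02 with upper quartile scaling. Summed satellite cell markers did not overlap, at 74.1 to 102 CPM in CTRL and 138 to 162 CPM in ASO, and of the 4 markers tested Cdh15 alone was past the threshold. Most of the difference in the sum was that of Cdh15, with means of 38.25 CPM in CTRL and 89.6 CPM in ASO. The means were 7.60 and 8.605 CPM for Pax7, 33.15 and 40.5 for Itga7, 6.60 and 8.03 for Vcam1, and 4.39 and 2.88 for Myf5.

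Both receptors were counted on single segments of 500 bp. That of Fzd4 lies in the 3′UTR at chr7:89061843-89062342, plus strand. That of Fzd7, chr1:59525615-59526114, plus strand, belongs to the protein-coding transcript Fzd7-201 and falls in an intron of the transcript marked canonical in GENCODE M39. Fzd1, Fzd5 and Fzd9 were the tested genes among 8 other Frizzled receptors, and none passed, with log2 fold changes of 0.24 (SE 0.36), -0.78 (SE 0.34) and 0.61 (SE 0.60).

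Lrp6, the co-receptor that is phosphorylated when a Wnt ligand binds, was higher on average in ASO. It had 58.5, 45.7, 84.0, 67.3 and 57.8 CPM in CTRL and 93.2, 78.6, 117, 70.1 and 106 CPM in ASO. CTRL replicate 3 lay above ASO replicates 2 and 4, so the groups overlapped. The means were 62.6 ± 14.2 and 92.9 ± 19.2 CPM, each over 5 libraries with the SD, for a log2 fold change of 0.57 (SE 0.19), or 0.36 with scaling to total counts. The counts came from a single segment in the 3′UTR, chr6:134423439-134423938, minus strand. Lrp5 had 0 counts in all libraries, since 3 of its 4 segments share their bases and keep 3, 0 and 5 of their own, and the fourth, 36843 bp upstream with 500 bases of its own, was not covered by any read pair.

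Among 8 other co-receptors and cell-surface partners, 3 were tested. Ryk, a receptor-like kinase that binds Wnt ligands, rose from 160 ± 13.5 to 249 CPM on average (log2 fold change 0.64, SE 0.13, edgeR adjusted p = 0.00294). Gpc4, a glypican of the cell surface, fell from 59.3 ± 7.65 to 39.2 CPM (log2 fold change -0.60, SE 0.14, edgeR adjusted p = 0.00719), and Lrp4, a receptor for agrin at the neuromuscular junction, had a log2 fold change of 0.14 (SE 0.24). Of the 14 secreted inhibitors listed, 5 were tested and none passed. Sfrp1 had the lowest log2 fold change among them, -0.92 (SE 0.35, edgeR adjusted p = 0.0671), and Dkk3 the highest, 0.49 (SE 0.85). Of the R-spondins and genes of receptor turnover, Znrf3 at -0.75 (SE 0.41) and Kremen1 at 0.26 (SE 0.22) were tested and did not pass.

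Axin2, the scaffold of the destruction complex that β-catenin itself induces, was lower on average in ASO. Its CTRL libraries had 38, 48, 33, 60 and 43 counts, or 17.9, 22.4, 16.3, 35.4 and 24.1 CPM. The ASO libraries had 17, 21, 32, 50 and 17 counts, or 8.21, 8.92, 13.5, 20.9 and 8.02 CPM. ASO replicate 4 lay above 2 CTRL libraries, so the groups overlapped. Over the 5 libraries of each group the means were 23.2 ± 7.51 and 11.9 ± 5.49 CPM (SD), and the log2 fold change was -0.95 (SE 0.31). The 2 counted segments lie in the 3′UTR of the last exon on the plus strand. On the distal one, chr11:108841110-108841609, the means were 16.3 ± 5.89 CPM in CTRL and 10.4 ± 5.05 CPM in ASO, and the groups overlapped. On the other, of 116 bp and 1272 bp upstream, they were 6.91 ± 1.93 and 1.47 ± 1.25 CPM, from 66 and 17 counts, and did not overlap. The distal segment held 65.1% to 75.0% of Axin2 counts in CTRL libraries and 75.0% to 100% in ASO libraries.

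Ctnnb1 was the most counted of the 10 genes. CTRL libraries had 528, 512, 669, 712 and 898 CPM, and ASO libraries 231, 240, 101, 204 and 177 CPM. The highest ASO library was below the lowest CTRL library by more than the SD of either group. The group means of 664 ± 157 and 191 ± 55.9 CPM (SD, 5 libraries each) gave a log2 fold change of -1.80 (SE 0.24).

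The size of the Ctnnb1 difference depended on the segment. Its last 500 bp carry almost no count, because the segments of Ctnnb1-201 and Ctnnb1-208 differ by 1 base and keep 1 base each of their own. The segment ending 727 bp upstream, chr9:120788584-120788846, lies wholly in the 3′UTR and had 204 ± 24.2 CPM in CTRL and 86.2 ± 22.6 CPM in ASO, a ratio of 0.422. The segment ending 990 bp upstream, with 206 coding bases and 291 bases of an intron of the canonical transcript, had a ratio of 0.333. Ratios were 0.172 for the segment 5108 bp upstream, chr9:120783966-120784465, which covers 175 coding and 325 intronic bases, and 0.148 for the segment 8797 bp upstream, chr9:120780277-120780776, which covers 364 coding and 136 intronic bases. In each of these 4 segments every ASO library was below every CTRL library. The share of Ctnnb1 counts from segments ending within 1000 bp of the gene's end was 50.1% to 65.3% in CTRL and 70.7% to 80.8% in ASO. Another segment, 1482 bp upstream and wholly intronic, had 26 counts in CTRL and 25 in ASO.

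**Figure D2:**
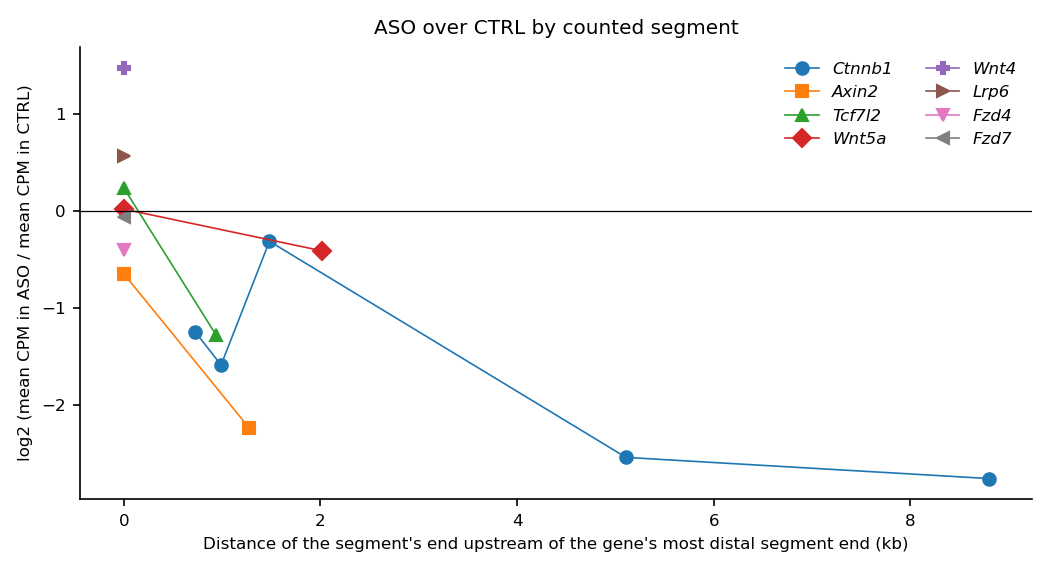
Log2 ratio of the mean CPM in ASO to that in CTRL (vertical axis) for each counted segment with at least 50 counts, against the distance in kb of its end upstream of the most distal segment end of the gene (horizontal axis); lines join segments of a gene. Ctnnb1 goes from -1.25 at 727 bp to -2.76 at 8797 bp, with a point at -0.31 that rests on 51 counts, and Axin2, Tcf7l2 and Wnt5a are also lower upstream. The groups overlap on the upstream Wnt5a segment, where CTRL replicate 3 had 24.7 CPM against 5.19 to 11.2 in the other CTRL libraries.

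Tcf7l2, a factor of the Tcf and Lef family that carries β-catenin to DNA, overlapped between the groups. Its CTRL libraries had 17.9, 14.9, 27.7, 14.8 and 16.3 CPM, and its ASO libraries 12.6, 15.3, 16.5, 17.5 and 14.6 CPM. The high value was again that of CTRL replicate 3, the library with the highest adipocyte and macrophage markers, whose part was not tested. The log2 fold change was -0.26 (SE 0.22), and on the most distal segment alone it was 0.045. That segment, chr19:55921587-55922086 in the 3′UTR, had 99 counts in CTRL and 134 in ASO, whereas the one 939 bp upstream, also in the 3′UTR, had 81 and 39 and did not overlap between the groups (8.36 ± 2.12 and 3.45 ± 1.16 CPM). The other segments of the gene together had 1 count.

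In all, 8 of the 10 genes passed the filter on low counts. Wnt4 and Lrp6 were past the threshold in the higher direction and Axin2 and Ctnnb1 in the lower, beside 11.7% and 17.5% of all tested genes, and since the contrast served to choose the genes nothing is read from these counts. Levels between genes were compared per kb of counted length in CTRL. Fzd4 had 356 ± 226 CPM per kb, Ctnnb1 314 ± 74.5 and Fzd7 260 ± 84.9. Lrp6 followed at 125 ± 28.4 CPM per kb, and below it came Axin2 at 37.7 ± 12.2, Wnt4 at 20.5 ± 7.09, Tcf7l2 at 20.3 ± 5.96 and Wnt5a at 14.6 ± 9.27 CPM per kb. Only between Lrp6 and Axin2 were neighbours in this order without overlap among the 5 libraries, so Fzd4, Ctnnb1, Fzd7 and Lrp6 each stood above Axin2, Wnt4, Tcf7l2 and Wnt5a without overlap among the CTRL libraries. Ctnnb1 and Lrp6, which are not neighbours, did not overlap either, at 242 to 426 and 91.4 to 168 CPM per kb.

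The intracellular part of the pathway held genes that moved in each direction. Of 27 other genes of the Dishevelled proteins and destruction complex, 23 were tested, 3 rose and 6 fell, which makes 39.1% beside 29.2% of all tested genes. Dvl1 and Dvl3, Dishevelled proteins that pass the signal from Frizzled, had log2 fold changes of 0.55 (SE 0.14, edgeR adjusted p = 0.0132) and 0.59 (SE 0.17, edgeR adjusted p = 0.0187), the latter not past the threshold with scaling to total counts (0.42). Amer1, a membrane-bound regulator of the complex, was at 0.48 (SE 0.17, edgeR adjusted p = 0.0476) and kept its call in 2 of 10 alternative settings. The groups did not overlap for Dvl1, at 275 to 394 CPM in CTRL and 417 to 568 CPM in ASO. The ubiquitin ligase adaptors for β-catenin both fell, Fbxw11 by 1.44 on the log2 scale (SE 0.26, edgeR adjusted p = 0.00202) and Btrc by 0.93 (SE 0.29, edgeR adjusted p = 0.0306), the call for Btrc being lost in 4 of 9 alternative settings. Apc, the partner of Axin in the complex, fell by 0.64 (SE 0.19, edgeR adjusted p = 0.0265) and Tnks, the tankyrase that marks Axin for degradation, had a log2 fold change of -0.90 (SE 0.19, edgeR adjusted p = 0.00423). The call was lost for Apc without 4 of the 10 libraries in turn, and for Tnks on the most distal segment alone (-0.57, edgeR adjusted p = 0.0519).

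The other 2 genes of the group that fell are casein kinases, and their counts came from unlike places. Csnk1d, with a log2 fold change of -1.67 (SE 0.39, edgeR adjusted p = 0.00725), drew 95.8% of them from a segment lying 13500 bp before the end of the gene. Csnk1g1 was at -1.42 (SE 0.31, edgeR adjusted p = 0.00486) over 12 segments and at -0.16 (edgeR adjusted p = 0.806) on the most distal segment alone. Axin1, the constitutive counterpart of Axin2, had 47.0 ± 4.11 CPM in CTRL and 41.7 CPM in ASO, with a log2 fold change of -0.17 (SE 0.16, edgeR adjusted p = 0.436). Gsk3b, the kinase that phosphorylates β-catenin, was at -0.37 (SE 0.23, edgeR adjusted p = 0.255).

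Among nuclear factors, 14 of 20 other genes were tested, with Ep300 higher and Ctbp1 lower. Ep300, a histone acetyltransferase that works with β-catenin, had a log2 fold change of 0.70 (SE 0.23, edgeR adjusted p = 0.0346) and overlapping groups, and was short of the threshold with scaling to total counts and without 7 of the 10 libraries in turn. Ctbp1, a co-repressor, fell by 0.88 (SE 0.24, edgeR adjusted p = 0.0164). The repressors Tle1, Tle3, Tle4 and Tle5 and the co-activators Bcl9, Bcl9l and Pygo1 did not pass. Of 17 other genes listed as transcriptional targets, 6 were tested and Fst alone passed. Fst, which codes for the myostatin and activin antagonist follistatin, had 18.7 to 45.4 CPM in CTRL and 3.30 to 15.9 CPM in ASO, a log2 fold change of -1.72 (SE 0.41, edgeR adjusted p = 0.00835). Ccnd1 was at 0.52 (SE 0.40), Tnfrsf19 at -0.90 (SE 0.34, edgeR adjusted p = 0.0657), Nkd1 at -0.54 (SE 0.58), Znrf3 as above and Vegfa at 0.07 (SE 0.21).

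The non-canonical branch had 14 of 26 genes tested, of which 2 rose and 5 fell, which makes 50% beside 29.2% of all tested genes. Rac1, a small GTPase, was among those that rose, with a log2 fold change of 0.51 (SE 0.13, edgeR adjusted p = 0.0108), and was short of the threshold with scaling to total counts (0.33). For Rac1, 461 bp of the most counted segment overlap a segment of another gene on the opposite strand. The stress kinases Mapk8 and Mapk9 fell, with log2 fold changes of -0.65 (SE 0.15, edgeR adjusted p = 0.00708) and -1.29 (SE 0.27, edgeR adjusted p = 0.00404), though Mapk8 was at -0.03 on its most distal segment alone. The calcium-dependent kinases Camk2b and Camk2d fell by 0.76 (SE 0.20, edgeR adjusted p = 0.0125) and 0.95 (SE 0.20, edgeR adjusted p = 0.00382), and the planar polarity cadherin Celsr2 by 0.89 (SE 0.22, edgeR adjusted p = 0.0107).

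**Figure D3:**
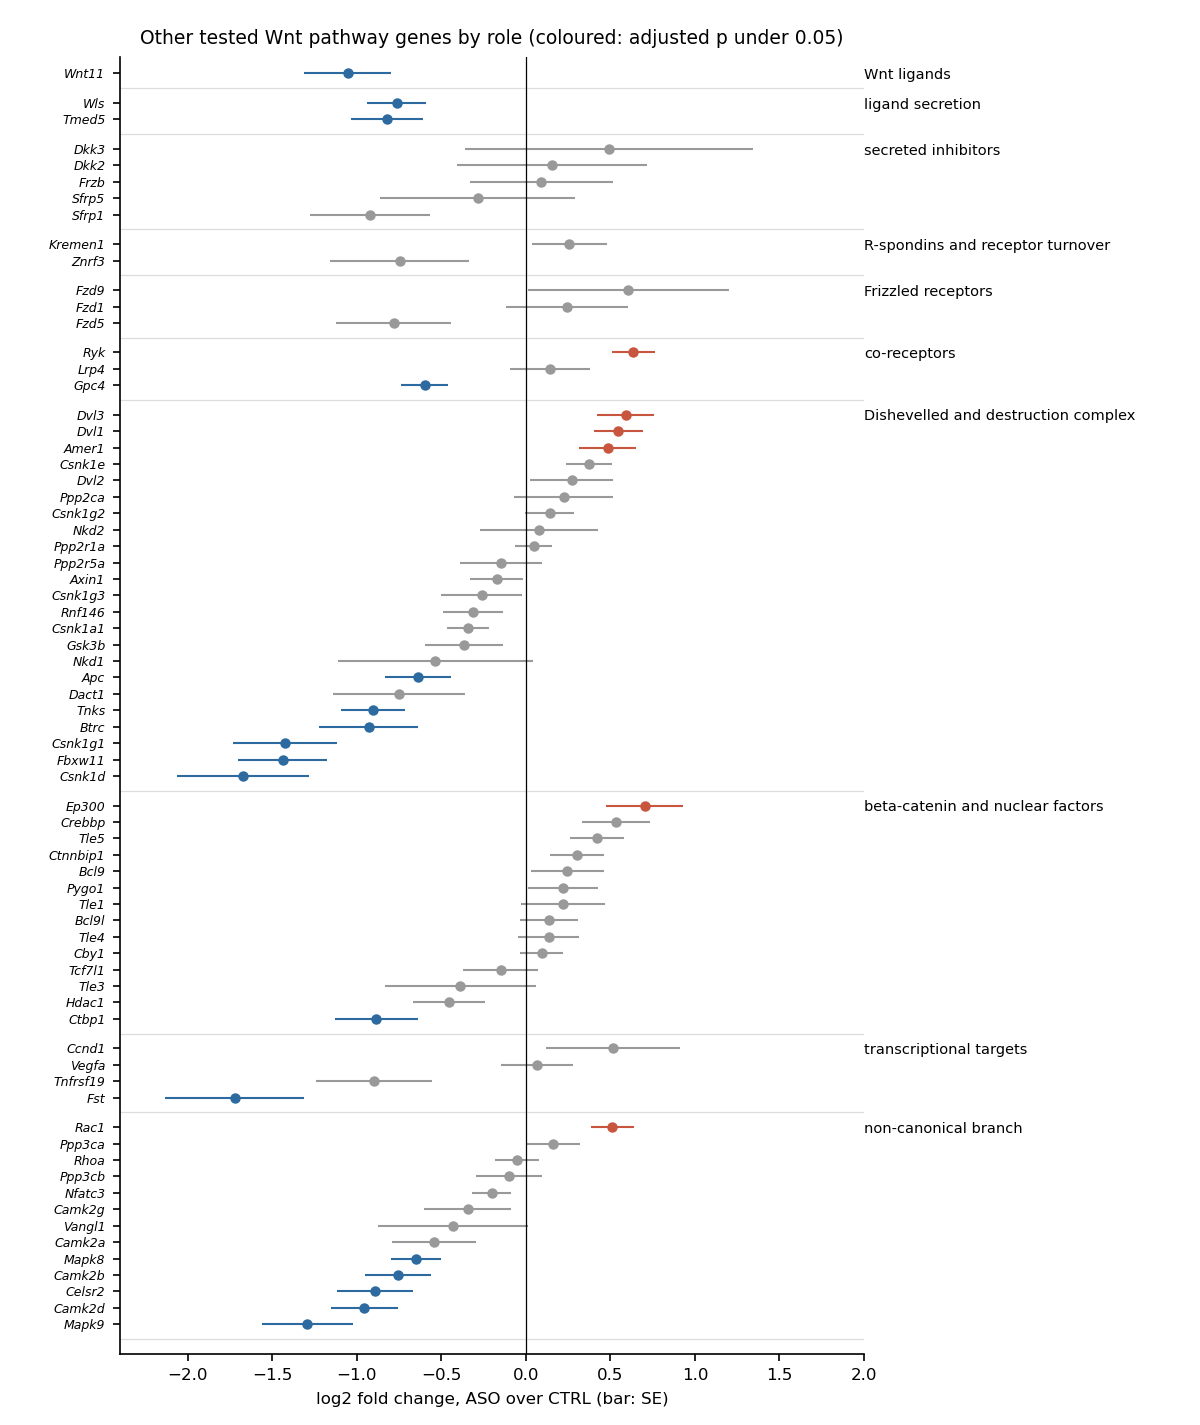
Log2 fold change of ASO over CTRL (horizontal axis, bars are SE) for 70 of the 71 tested genes of the Wnt pathway other than the 10, each under its earliest listed role, red and blue where the edgeR adjusted p is under 0.05. The 6 red genes shown lie between 0.48 and 0.70 and the 17 blue genes between -1.72 and -0.60.

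Over all roles, 142 other genes of the pathway were listed and 71 were tested, while 23 had 0 counts in all libraries and 12 had no base of their own. Of the tested genes 7 rose and 17 fell, which makes 33.8% beside 29.2% of all tested genes, and with scaling to total counts 3 rose and 22 fell. Their median log2 fold change was -0.15, against -0.03 over all genes. On the most distal segment of each gene alone, 7 rose and 7 fell among 59 tested, and Wls, Csnk1g1, Mapk8, Celsr2, Tnks, Fst, Ctbp1, Dvl3, Ep300 and Amer1 were short of the threshold there. Ryk, Rac1, Wnt11, Tmed5, Apc and Csnk1d were not tested in that fit. The calls there were thus in part for genes that did not pass over all segments. Other genes lay farther from 0 in that fit than over all segments, namely Camk2b at -2.045 (edgeR adjusted p = 0.000253), Mapk9 at -1.73, Btrc at -1.13, Gpc4 at -0.78 and Dvl1 at 0.82, all past the threshold. Gpc4 and Amer1 have a single segment, and the most distal one held 97.3% of Btrc, 99.3% of Dvl3 and 100% of Ep300 counts. For these 5 genes both fits used the same or nearly the same counts, scaled over a different set of genes. The most counted segment was not the most distal one in 11 of the 17 genes that fell, in 2 of the 7 that rose and in 11 of the 47 that did not pass, which was not tested. The miR-22 seed match was in the 3′UTR of 3 of the 7 genes that rose and 1 of the 17 that fell, beside 21.7% of all tested genes. This split depended on the transcripts read. With transcripts annotated as targets of nonsense-mediated decay included, Apc, Csnk1d, Fst and Mapk9, which fell, also had a match. No further gene that rose had one, and the share over tested genes was 32.1%. The matches of 3 of these genes are shown in capitals, because the genes are members of the pathway that moved and carry the complement of the seed, from Dvl1 at chr4:155945197-155945218 and chr4:155945291-155945312, Ep300 at chr15:81535905-81535926 and Camk2d at chr3:126639049-126639070 (GRCm39, all on the plus strand).
Dvl1, site 1: ttgcccagctcagtGGCAGCTc
Dvl1, site 2: tggttgttgtgcaaGGCAGCTg
Ep300: tcataatatacaggGGCAGCTg
Camk2d: tagtgaatttccttGGCAGCTc
Dvl1 and Ep300 rose and Camk2d fell. Both Dvl1 sites lie beyond the most distal counted segment of the gene, chr4:155943261-155943760, and whether the counted Dvl1 RNA carries them was not tested. The Camk2d site lies beyond the segment with 66.4% of its counts, chr3:126637477-126637976, which ends 1999 bp before the most distal one. Whether the RNA counted there carries the Camk2d site was not tested either.

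The genes most like Wnt4 and Axin2 in their pattern were sought by Pearson's r of log2 CPM over the 10 libraries after the mean of each group was taken out, among 7818 genes. For Wnt4 these were Tbc1d16 (r = 0.96, Spearman's rho 0.96), Egln2 (r = 0.95, rho 0.89) and Cib2 (r = 0.95, rho 0.93). For Axin2 they were Fgfr4 (r = 0.92, rho 0.78), Arid5a (r = 0.87, rho 0.83) and Cd9 (r = 0.86, rho 0.67). The values of a pair share library and depth, and each r is the highest of many.

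Across 10 alternative settings and the omission of each library in turn, Wnt4 ranged from 1.28 to 1.63 and Ctnnb1 from -1.98 to -1.42 on the log2 scale, and each stayed on its side of the threshold in all of them. The values for Axin2 and Lrp6 kept their sign but each crossed the threshold in 2 of the 10 settings and without 7 of the 10 libraries. The settings share the same libraries and the contrast served to choose the genes, so these calls are a description and no support for the differences.

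**Figure D4:**
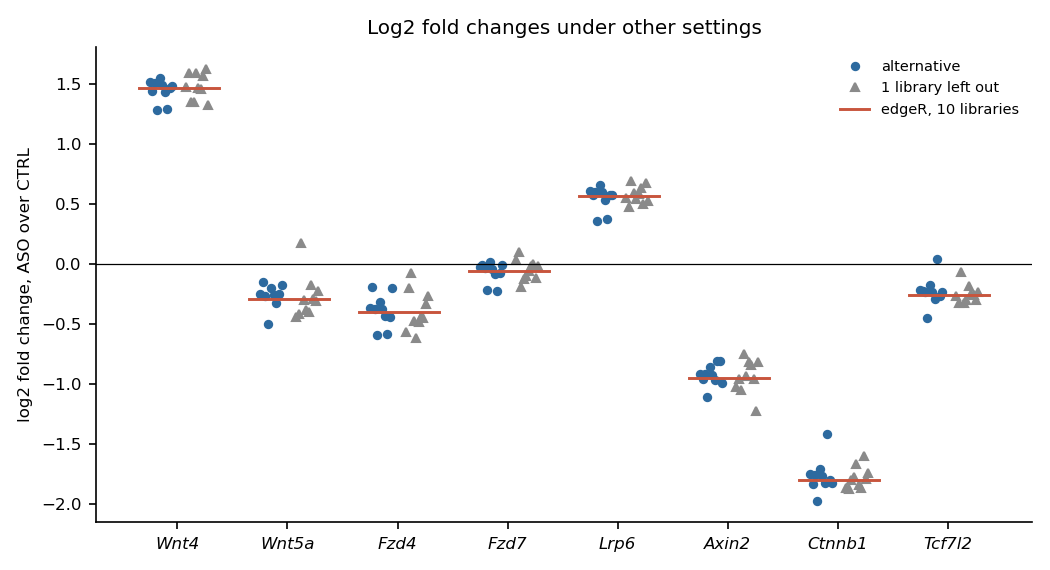
Log2 fold change of ASO over CTRL (vertical axis) of the 8 measured genes with edgeR on all 10 libraries (line), under up to 10 alternative settings (circles) and with each library left out (triangles). Wnt4 and Ctnnb1 keep their sign and range of 1.28 to 1.63 and -1.98 to -1.42, and Wnt5a, Fzd7 and Tcf7l2 cross 0.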

How the data were processed

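Gastrocnemius RNA of DIO mice was sequenced as stranded mRNA libraries, 5 ASO and 5 CTRL, grouped by the sample titles. The authors deposited raw counts, made with fastp, STAR on GRCm39 and featureCounts on read pairs, limited to the final 500 bp of each 3′UTR; no strand option is named. Of 13932 full-length segments with at most 20 bases free of overlap on their own strand, 1.59% held over 50 counts, against 54.2% of 24 that shared at least 480 bases with the other strand only, so a segment's own bases are taken as those that no segment of the same strand shares. The table also holds 4 per-sample columns of other samples, which were not used.

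Segments were summed per gene through GENCODE M39 on GRCm39 (52361 of 52423 identifiers matched; the 62 others, with 0.0197% of counts, stayed as rows of their own). Counts were fitted with edgeR 4.0.16 in R 4.3.3 (TMM, filterByExpr, quasi-likelihood test, Benjamini-Hochberg over 7819 genes, threshold 0.05), after the fit was tested on simulated data. CPM values use TMM-scaled library sizes, and errors are SDs. The labels do not say that each library is a separate mouse. The p-values set the group difference against the spread between these libraries, which need not be the spread between mice.

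The 10 genes, the gene lists and the tests were chosen with earlier results of these data known. Genes named are the 10, the other listed pathway genes past the threshold, up to 10 per direction by adjusted p with a mean of at least 10 counts, and the 3 most like Wnt4 and Axin2; Wnt11, Tmed5, Apc, Btrc, Ctbp1, Celsr2, Camk2b and the genes given as not passing were named after their values were seen. Alternatives were DESeq2 1.42.0, limma-voom (limma 3.58.1), RLE, total counts, upper quartile, no filter, at least 10 counts in every library, the most distal segment with at least 100 bases of its own, libraries drawn down to 1606909 counts, a replicate block and leaving out each library. The 3′UTRs were read from protein-coding transcripts only, a restriction added after seeing the annotation. Sequences are from RefSeq (GRCm38.p6) and GENCODE M39 transcripts. A result for 1 listed gene that passed the threshold is counted but not reported here.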

Additional observations from a re-analysis of the deposited data

Results flagged for a closer look

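A single library stood apart from the other 4 of its group in 4 of the 64 gene and group combinations examined, by Dixon's ratio of the gap to the range, at a limit that chance passes in about 1 of 20 groups. Wnt5a was at 30.6 CPM and Tcf7l2 at 27.7 CPM in CTRL replicate 3, each the highest of its group (ratios 0.728 and 0.754). Dvl1 was at 274.6 CPM in CTRL replicate 3, the lowest of its group (ratio 0.729), and Ep300 at 64.8 CPM in CTRL replicate 2, the highest (ratio 0.720). CTRL replicate 3 also had the highest summed adipocyte, fibro-adipogenic progenitor and macrophage markers and the lowest summed muscle fiber markers of the 10 libraries, and the part of this in the 3 values was not tested. The progenitor sum varied in CTRL mostly with Dpt.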

How the results depend on the processing

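Calls over all genes were 916 higher and 1365 lower. With total counts 528 were higher, on the most distal segment 486 were higher and 792 lower, and without single libraries 691 to 1021 were higher and 1126 to 1370 lower. Of the other Wnt pathway genes, 7 higher and 17 lower, 3 were higher with total counts, 7 lower on the most distal segment (fewer genes tested), and 4 to 9 higher and 16 to 20 lower without single libraries, the lowest of these, 4, without CTRL replicate 5. The cause was not tested. The log2 fold change of Wnt5a ranged from -0.444 to 0.179 without single libraries, positive without CTRL replicate 3, and that of Fzd7 from -0.195 to 0.103, positive without CTRL replicates 1 (0.035) and 2 and ASO replicate 3 (0.003). Fzd7 turned to 0.021 with upper quartile scaling and Tcf7l2 to 0.045 on the most distal segment; none was past the threshold. Axin2 was short of the threshold on the most distal segment (-0.81) and with libraries drawn down to equal totals (-0.81), and Lrp6 with total counts (0.36) and on the most distal segment (0.38). Lrp6 has a single segment, so in the latter setting its counts were unchanged and only the scaling and the set of genes differed. Rac1, Dvl3, Ep300 and Amer1 were short of it with total counts, and the call was lost without 8 of the 10 libraries in turn for Amer1, 7 for Ep300, 6 for Btrc, 4 for Apc and 1 for Dvl3. The labels give both groups replicate numbers 1 to 5, and deviations of same-numbered libraries correlated at -0.43, 0.06, 0.05, 0.06 and 0.16. The ASO library most like a CTRL library had the same number for replicate 4 but not for the others. The labels state no pairing, and whether same-numbered libraries share a batch cannot be told from these values. With a replicate block, 663 genes were higher and 1175 lower, 6 and 15 of them among the other pathway genes, and Apc (edgeR adjusted p = 0.0511), Btrc (0.0669) and Amer1 (0.102) were short of the threshold. Counts of 11 to 87 per library for Wnt4 and 17 to 60 for Axin2 limit the precision of those values.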
